A study of Mus musculus with 12 samples.

Results

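The 10 genes Il1a, Il1b, Il1rn, Il1r2, Cxcl2, Cxcl3, Nlrp3, Ptgs2, Arg1 and Nos2, all known from myeloid inflammation, were followed in leukocytes of mouse melanomas. They were taken by symbol from the 32285 genes in the 6 matrices, and each symbol matched 1 gene identifier. The groups were 3 mice given CAL-101-treated T cells and 3 mice given vehicle-treated T cells (control). CAL-101, or Idelalisib, inhibits the delta isoform of phosphoinositide 3-kinase, and it was applied to the T cells in vitro, before transfer. All 6 mice were B6.129S7-Rag1tm1Mom/J, in which loss of Rag1 stops lymphocyte receptor assembly, so that T and B lineages are missing while NK and myeloid cells remain. All bore intradermal tumours of B16-F10, a transplantable melanoma line, and received T cells retro-orbitally, Pmel Thy1.1 and CD8+, which carry a receptor for a melanocyte antigen. Live CD45.2+ cells were sorted from the skin tumours, and RNA and 102 surface protein tags were counted in the same droplets.

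Myeloid cells answer tissue damage with the interleukin-1 system. Il1a and Il1b encode its 2 main agonists, Nlrp3 encodes the sensor of the inflammasome that leads to cleavage of pro-interleukin-1 beta, and 2 members hold the system back. Il1rn encodes a receptor antagonist, and Il1r2 encodes a decoy receptor that binds the cytokine without signalling. Cxcl2 and Cxcl3 encode chemokines that attract neutrophils through Cxcr2, and Ptgs2 encodes cyclooxygenase-2, the inducible enzyme of prostaglandin synthesis. Arg1 and Nos2 encode arginase 1 and inducible nitric oxide synthase, which compete for arginine and are known from suppressive and inflammatory macrophages.

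In the RefSeq annotation of GRCm38.p6, Il1a lies at chr2:129299609-129310186, Il1b at chr2:129364569-129371164 and Il1rn at chr2:24336860-24351491. Cxcl3 at chr5:90786101-90788093 and Cxcl2 at chr5:90903899-90905938 lie close together. Il1r2 lies at chr1:40084692-40125230 and Ptgs2 at chr1:150100031-150108234. Nlrp3 lies at chr11:59541569-59566955, Nos2 at chr11:78920787-78960226 and Arg1 at chr10:24915207-24927470. The 250 bases before an annotated start are shown for both chemokines and both agonists, because the members of each pair are related genes and Il1a and Il1b had lower counts together in the comparison of all cluster 10 cells. Sequences come from RefSeq promoter entries of GRCm38.p6, which matched 8 of the 10 members. They are printed 5′ to 3′ on the gene's strand. The Il1a and Il1b windows overlap the gene spans given above, so the annotated starts used for them lie inside these spans. Distances below are counted from those starts. Capitals mark the longest word common to the Cxcl2 and Cxcl3 windows, GGGAATTTCCC, and the word TATAAA.
Cxcl2, chr5:90903649-90903898, plus strand: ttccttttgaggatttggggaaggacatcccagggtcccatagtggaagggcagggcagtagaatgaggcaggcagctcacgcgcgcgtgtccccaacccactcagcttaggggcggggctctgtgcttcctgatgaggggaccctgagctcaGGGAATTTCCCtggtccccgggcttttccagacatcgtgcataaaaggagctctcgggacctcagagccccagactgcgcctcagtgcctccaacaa
Cxcl3, chr5:90785851-90786100, plus strand: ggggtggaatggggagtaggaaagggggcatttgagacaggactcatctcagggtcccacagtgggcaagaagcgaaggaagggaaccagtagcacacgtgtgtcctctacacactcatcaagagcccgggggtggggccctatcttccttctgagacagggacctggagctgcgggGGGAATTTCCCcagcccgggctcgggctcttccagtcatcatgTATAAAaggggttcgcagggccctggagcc
Il1a, chr2:129309973-129310222, minus strand: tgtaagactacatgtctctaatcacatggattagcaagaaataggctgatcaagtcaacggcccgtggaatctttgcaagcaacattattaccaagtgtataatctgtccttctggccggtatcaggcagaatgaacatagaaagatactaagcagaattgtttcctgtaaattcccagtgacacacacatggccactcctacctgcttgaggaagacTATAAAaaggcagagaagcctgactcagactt
Il1b, chr2:129371140-129371389, minus strand: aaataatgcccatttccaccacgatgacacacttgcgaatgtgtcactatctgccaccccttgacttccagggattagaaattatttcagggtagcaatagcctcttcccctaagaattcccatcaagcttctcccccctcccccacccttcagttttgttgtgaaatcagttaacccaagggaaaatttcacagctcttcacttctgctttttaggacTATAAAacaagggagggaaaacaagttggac
The Cxcl2 and Cxcl3 windows were identical at 58.5% of aligned positions, and the Il1a and Il1b windows at 49.4%. The word common to both chemokine windows begins 97 bases before the start of Cxcl2 and 73 before that of Cxcl3, and it was picked after the sequences had been looked at. Read on both strands, 0.0426% of the 32851 promoter windows of the table hold it. It has a form that NF-kappaB proteins, transcription factors of inflammatory genes, are known to bind, and no binding was measured here. TATAAA, the core of a TATA box, stands 30 bases before the start of Cxcl3, 32 before that of Il1a and 31 before that of Il1b, and is not in the Cxcl2 window. On the gene's strand 7.59% of all windows hold it.

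The 6 libraries held 45477 cells, with 6152 to 7217 cells per CAL-101 mouse and 7716 to 9147 per control mouse, and with 75716841 to 93929471 and 90933212 to 97933109 RNA counts of unique molecules (UMIs). Of the cell barcodes, 249 occurred in more than 1 library, and 9 of these had a cell in cluster 10 or 11. The myeloid cells were few. The deposited cluster 10 held 726 cells (29, 94 and 75 in the CAL-101 mice and 322, 55 and 151 in the control mice), and cluster 11 held 260 (91, 33 and 41 against 23, 47 and 25). By deposited label there were 414 Neutrophils, all in cluster 10, 360 Monocytes, of which 232 lay in cluster 10 and 109 in cluster 11, and 127 Dendritic cells. In tumours, fewer cells of a type and less RNA per cell cannot be told apart in a summed level, so levels are given within a class, as counts-per-million values of that class's UMIs (CPM).

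A deposited label went against the surface protein tags. The cluster 10 cells labelled Monocytes carried the neutrophil antigen Ly-6G at 10.9% of their antibody tags and CD11b at 12.7%, against 11.01% and 12.3% on cells labelled Neutrophils (means over 6 mice). The cluster 11 cells labelled Monocytes carried Ly-6G at 0.433% and CD11b at 5.03%, with MHC class II (I-A/I-E) at 3.15%, against 0.0517% on the monocyte-labelled cells of cluster 10. CD115, the monocyte growth factor receptor, was at or below the highest isotype control on all of these cells. In the monocyte-labelled cells of cluster 10 all 14 neutrophil marker genes were detected. They summed to 12879 to 22587 CPM in the CAL-101 mice and 21274 to 31223 CPM in the control mice. Of the 16 monocyte and macrophage markers, C1qa, C1qb, C1qc and Mrc1 were at 0 in these cells, and the others were detected. The myeloid gene Lyz2 had 31.0 to 239 CPM per mouse in these cells and 162 to 1506 CPM in Neutrophils. The myeloid gene S100a8 was lower in these cells, at 2662 to 10182 CPM per mouse, than in Neutrophils, at 13587 to 41920 CPM. The cells are called the monocyte-labelled cells of cluster 10 below and kept apart from those of cluster 11. In the latter all 16 monocyte and macrophage markers were detected and Ly6g was at 0, while 15 of 109 cells had a UMI of S100a8. Dendritic cells had all 15 of their markers, and the melanoma markers (Pmel, Mlana, Dct, Tyrp1, Tyr) reached a sum of 3538 CPM in 1 CAL-101 mouse and 3521 CPM in 1 control mouse.

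Il1b, Il1r2 and Nlrp3 were at their highest in neutrophils. The classes were made from the RNA of these same cells, so the order of classes is a description with no test. Il1b averaged 11726 ± 2244 CPM in Neutrophils, 6782 ± 2511 in the monocyte-labelled cells of cluster 10, 2418 ± 1854 in those of cluster 11 and 596 ± 366 in Dendritic cells (SD, n = 6 mice). NK cells had 10.4 ± 5.77 CPM of Il1b and T cells 2.66 ± 1.90. Neutrophils stood above the monocyte-labelled cells of cluster 10 in 6 of 6 mice, by more than the spread, and these stood above the monocyte-labelled cells of cluster 11 in 6 of 6. Nlrp3 followed the same order, with 1243 ± 328 CPM in Neutrophils, 855 ± 248 and 285 ± 119 in the monocyte-labelled cells of clusters 10 and 11, and 131 ± 72.0 in Dendritic cells. Lymphocytes carried hardly any Nlrp3, 1.92 ± 1.08 CPM in T cells and 1.74 ± 0.673 in NK cells, which did not differ beyond their spread. Of these UMIs, 679 of 849 in T cells and 66 of 187 in NK cells lay in the same lymphocyte clusters.

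Il1r2, the decoy receptor, also led in Neutrophils, at 2112 ± 377 CPM, above the monocyte-labelled cells of cluster 10 at 1581 ± 457 in 5 of 6 mice. Dendritic cells (271 ± 140) and the monocyte-labelled cells of cluster 11 (191 ± 174) followed and overlapped each other. T cells had 34.9 ± 21.1 CPM of Il1r2, 1.65% of the neutrophil level, against 0.155% for Nlrp3 and 0.0227% for Il1b, and NK cells had 6.21 ± 2.68 CPM. A UMI of Il1r2 was seen in 15.8% of T cells (exact 95% interval 15.5 to 16.2%, for counting error only) and in 2.20% of NK cells, at median depths of 9136 and 6694 UMIs. The shares with a UMI of Il1b, a myeloid gene, were 0.755% of T cells and 0.796% of NK cells. Of the Il1b UMIs in T-labelled cells, 190 of 1162 lay in clusters 1 to 5, against 14552 of 15162 for Il1r2.

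Il1rn, Il1a and both chemokines did not separate the 2 labels of cluster 10. Il1rn, the antagonist, averaged 1161 ± 731 CPM in Neutrophils and 1356 ± 621 in the monocyte-labelled cells. Il1a averaged 242 ± 126 and 325 ± 202 CPM in the same classes. Cxcl2 reached 20448 ± 4777 CPM in Neutrophils and 20394 ± 3173 in the monocyte-labelled cells, against 3031 ± 2599 in the monocyte-labelled cells of cluster 11. Cxcl3 averaged 541 ± 299 and 569.9 ± 427 CPM in the 2 labels of cluster 10. All 4 genes averaged less in the monocyte-labelled cells of cluster 11 and in Dendritic cells, where Il1a had 41.6 ± 37.9 and 8.29 ± 7.67 CPM. Ptgs2 averaged 654 ± 283 CPM in Neutrophils, 450.0 ± 232 in the monocyte-labelled cells of cluster 10 and 254 ± 226 in those of cluster 11, and no neighbours in that order were separated beyond their spread.

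Arg1 and Nos2 lay elsewhere. Arg1 was at 0 UMIs in all 232 monocyte-labelled cells of cluster 10, where 3 UMIs would have meant 11.03 to 92.9 CPM per mouse, and 1 UMI was found in the 414 Neutrophils. It averaged 203 ± 182 CPM in the monocyte-labelled cells of cluster 11, from 19 of 109 cells, and 1 cell held 27.4% of those UMIs. Nos2 averaged 101.4 ± 191 CPM in the same cells, but 1 cell of CAL-101 mouse 2 held 69.8% of the UMIs. Nos2 was also seen in Dendritic cells (55.0 ± 58.2 CPM, 60.6% of it from 1 cell), in the monocyte-labelled cells of cluster 10 (52.5 ± 44.1) and in Neutrophils (19.6 ± 19.8). None of these neighbours differed beyond the spread over mice.

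**Figure D1:**
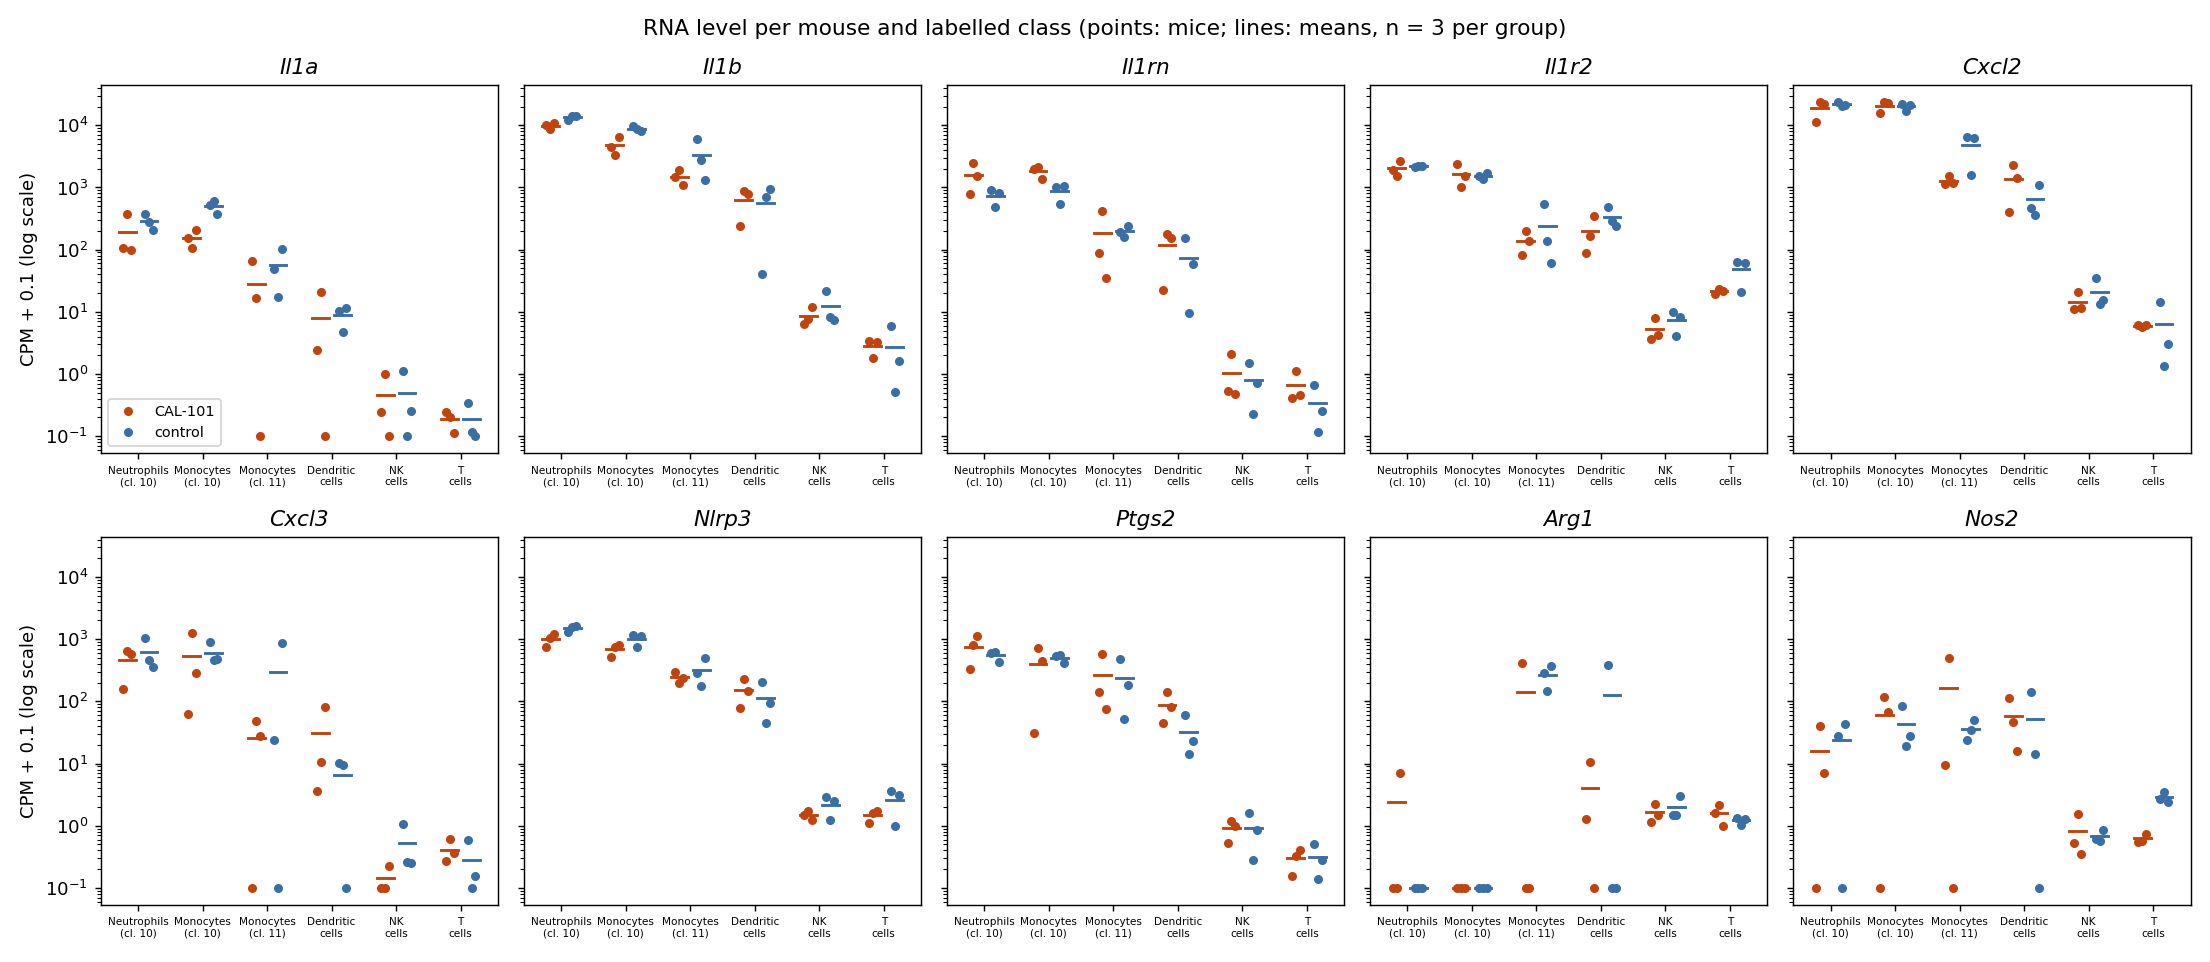
RNA level of the 10 genes per mouse (CPM + 0.1, log axis) in 6 labelled classes, CAL-101 mice left of control mice, with lines at the means of 3 mice. Of the 10 genes 8 are highest in the 2 labels of cluster 10, while Arg1 lies at the bottom of the axis there and reaches 417 CPM in cells of cluster 11.

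Which genes shared these patterns was read from Pearson's r of log2(CPM + 1) over 24 points (6 mice by cluster 10, cluster 11, NK cells and T cells), among 6093 genes with a mean of at least 20 CPM. The points share libraries and classes, so r describes class differences and carries no p. Il1b was most like Tnfaip2 (r = 0.994), Wfdc17, Themis2, Clec4e and Ptafr. Cxcl2 was most like Clec4d (0.991), Clec4e, C5ar1, Ptafr and Il1b, and Il1rn was most like Clec4d (0.992). Nlrp3 was most like Slc7a11 (0.992), and Ptgs2 was most like Il13ra1 (0.989) and next Nlrp3 (0.986). Cxcl3 was most like Dach1 (0.964), and its neighbours included Il1f9 (0.962) and Arg2 (0.954), the gene of the second arginase. Il1a was most like Slfn2 (0.975) and Il1r2 like Aph1c (0.972). Arg1 was most like Mgl2 (0.913), a macrophage lectin, and Nos2 like Ifngr2 (0.938), a subunit of the interferon gamma receptor.

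Within neutrophils the members did not vary as a block. Across 411 Neutrophils thinned to 1000 UMIs, Il1b correlated with Cxcl2 at r = 0.349 and Cxcl2 with Nlrp3 at r = 0.287, while Il1b and its antagonist Il1rn had r = -0.1699. These values describe sparse counts from cells of 6 libraries and carry no test.

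The comparison of the groups asked whether treatment of the transferred T cells went with different levels of these genes in the host's myeloid cells. UMIs were summed per mouse and tested with edgeR. Over all cells of cluster 10, Il1b, Il1a, Nlrp3 and Il1r2 were lower in the CAL-101 mice, and no member was called higher. Of 9 members tested 4 were called lower, and Arg1, with 2 UMIs, did not pass the filter on low counts. Of all 5310 genes tested, 3.24% were called lower at an adjusted p under 0.05.

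Il1b had 4159, 4138 and 5194 CPM in the CAL-101 mice, against 8869, 11026 and 9655 CPM in the control mice. The groups did not overlap, and the log2 fold change was -1.22 (SE 0.18, edgeR adjusted p = 0.00477). Il1a had 82.2, 184 and 61.3 CPM in the CAL-101 mice, against 321, 276 and 228 CPM in the control mice. All 3 CAL-101 mice lay below all 3 control mice, with a log2 fold change of -1.39 (SE 0.34, edgeR adjusted p = 0.0312). Nlrp3 had 333, 601 and 667 CPM in the CAL-101 mice, against 992, 1112 and 1182 CPM in the control mice, a log2 fold change of -1.11 (SE 0.24, edgeR adjusted p = 0.0212). Il1r2 had 959, 877 and 1232 CPM in the CAL-101 mice, against 1554, 1624 and 1697 CPM in the control mice, a log2 fold change of -0.75 (SE 0.20, edgeR adjusted p = 0.0397). The groups did not overlap for either gene. Groups did not overlap for 32.8% of all genes tested in this cluster, so absence of overlap was common here.

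The other 5 members tested did not pass. Cxcl2 had 6277, 15225 and 12124 CPM in the CAL-101 mice, against 17915, 16946 and 17508 CPM in the control mice, a log2 fold change of -0.73 (SE 0.25, edgeR adjusted p = 0.0853). Il1rn had 561, 1571 and 794 CPM in the CAL-101 mice, against 709.8, 398 and 761 CPM in the control mice, and overlapped between the groups (log2 fold change 0.56, SE 0.33, edgeR adjusted p = 0.293). Cxcl3 (log2 fold change -0.68), Ptgs2 (-0.29) and Nos2 (-0.21) overlapped between the groups, with edgeR adjusted p of 0.361, 0.671 and 0.802. Of the 4 calls, the call of Il1b held with each mouse left out in turn (edgeR adjusted p 0.00239 to 0.0395). The other calls were lost without CAL-101 mouse 3 or any control mouse. Without CAL-101 mouse 3 the adjusted p was 0.146 for Il1a, 0.0682 for Nlrp3 and 0.0959 for Il1r2. Without control mouse 1, 2 or 3 it was 0.140, 0.0794 and 0.123 for Il1a, 0.0777, 0.0550 and 0.132 for Nlrp3, and 0.117, 0.0627 and 0.178 for Il1r2. The call of Il1r2 was also lost without CAL-101 mouse 2 (0.0634).

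The makeup of cluster 10 moved with the groups. Its 58 cells labelled T or NK cells held 59.2, 40.1 and 49.5% of its UMIs in the CAL-101 mice, against 26.6, 19.3 and 18.3% in the control mice. These cells had a median of 15984 UMIs, against 3176 in Neutrophils, and 84.5% of them were among the cells with the highest doublet scores of their library, against 3.38% of Neutrophils. The 8 T cell markers summed to 5241 to 7016 CPM of cluster 10 in the CAL-101 mice and 2474 to 3205 CPM in the control mice. The 14 neutrophil markers summed to 21308 to 41677 and 44260 to 70146 CPM in the same order, with no marker of either list at 0. Il1b was lower in the cells labelled T or NK than in Neutrophils of the same mouse, in 6 of 6 mice, and had 1442, 628 and 1096 CPM there in the CAL-101 mice and 1678, 4414 and 1147 CPM in the control mice.

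**Figure D2:**
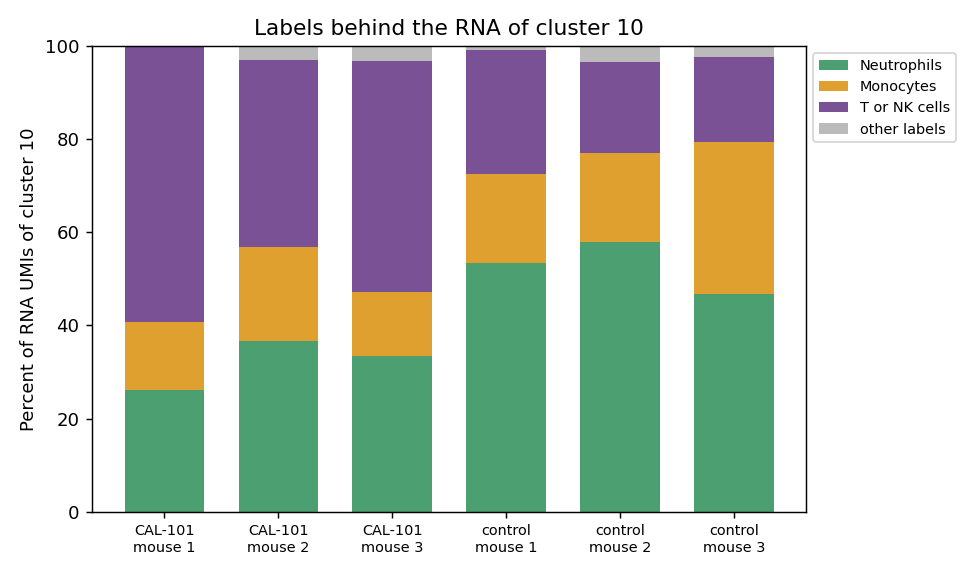
Percent of the RNA UMIs of cluster 10 from cells of each deposited label, per mouse. Cells labelled T or NK give 40.1 to 59.2% in the CAL-101 mice, to the left, and 18.3 to 26.6% in the control mice.

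Without those cells the 4 calls were lost. In the cells labelled Neutrophils alone, Il1b had 10159, 8612 and 10975 CPM in the CAL-101 mice, against 12218, 14329 and 14059 CPM in the control mice. The CAL-101 mice were again the lower 3, but the log2 fold change was -0.40 (SE 0.25, edgeR adjusted p = 0.611). Nlrp3 had 736, 1038 and 1220.3 CPM in the CAL-101 mice, against 1301, 1544 and 1621 CPM in the control mice, a log2 fold change of -0.52 (SE 0.24, edgeR adjusted p = 0.533). Il1a overlapped between the groups, with 105, 380.5 and 98.8 CPM in the CAL-101 mice and 376, 279.6 and 209 CPM in the control mice (log2 fold change -0.44, edgeR adjusted p = 0.792). Il1r2 had 1909, 1528 and 2666 CPM in the CAL-101 mice, against 2148, 2186 and 2234 CPM in the control mice, and lay on both sides of them (log2 fold change -0.06, edgeR adjusted p = 0.954). Of the 2338 genes tested in Neutrophils, edgeR called 0 (0%), with 221 at an unadjusted p under 0.05, and 14.6% did not overlap between the groups. The smallest CAL-101 class held 13 cells and 57090 UMIs.

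Il1rn, the antagonist, lay the other way. It had 771, 2473 and 1538 CPM in Neutrophils of the CAL-101 mice, against 895, 483 and 807 CPM in the control mice, with CAL-101 mouse 1 inside the control range (log2 fold change 1.18, SE 0.38, edgeR adjusted p = 0.391). In the monocyte-labelled cells of cluster 10 it had 1981, 2172 and 1362 CPM in the CAL-101 mice, against 1015, 538 and 1066 CPM in the control mice, with no overlap. In those cells Il1a had 155, 105 and 204 CPM in the CAL-101 mice, against 515, 595 and 378 CPM in the control mice. Il1b had 4458, 3316 and 6468 CPM there in the CAL-101 mice, against 9741, 8755 and 7952 CPM in the control mice. Neither gene overlapped between the groups, but the Il1a value of CAL-101 mouse 1 was 5 UMIs from 1 cell. Nlrp3 overlapped, with 526, 755 and 800.0 CPM in the CAL-101 mice and 1184, 749 and 1116 CPM in the control mice. Il1r2 overlapped as well, with 2384, 1007 and 1532 CPM in the CAL-101 mice and 1537, 1344 and 1683 CPM in the control mice. In these cells 24.5% of the 1370 genes that passed the filter did not overlap between the groups. No test was run in the monocyte-labelled cells alone, since CAL-101 mouse 1 had 9 of them, under the minimum of 10 per mouse.

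With Neutrophils and monocyte-labelled cells summed, Il1rn had a log2 fold change of 1.17 (SE 0.30, edgeR adjusted p = 0.0877) and missed the threshold. Il1a (-0.86, edgeR adjusted p = 0.263), Il1b (-0.51, 0.322), Nlrp3 (-0.52, 0.316) and Il1r2 (-0.0031, 0.995) did not pass either. Of the 3096 genes tested in that sum, 0.969% were called and 19.3% did not overlap, and 0 of the members tested were called. With the cells of highest doublet score left out of cluster 10, the adjusted p was 0.145 for Il1b, 0.244 for Il1a, 0.215 for Nlrp3 and 0.576 for Il1r2, at log2 fold changes of -0.80, -0.88, -0.72 and -0.29. The value of Ptgs2 changed sign with the choice of cells, at -0.29 in all of cluster 10 and 0.53 in Neutrophils, with neither past the threshold.

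**Figure D3:**
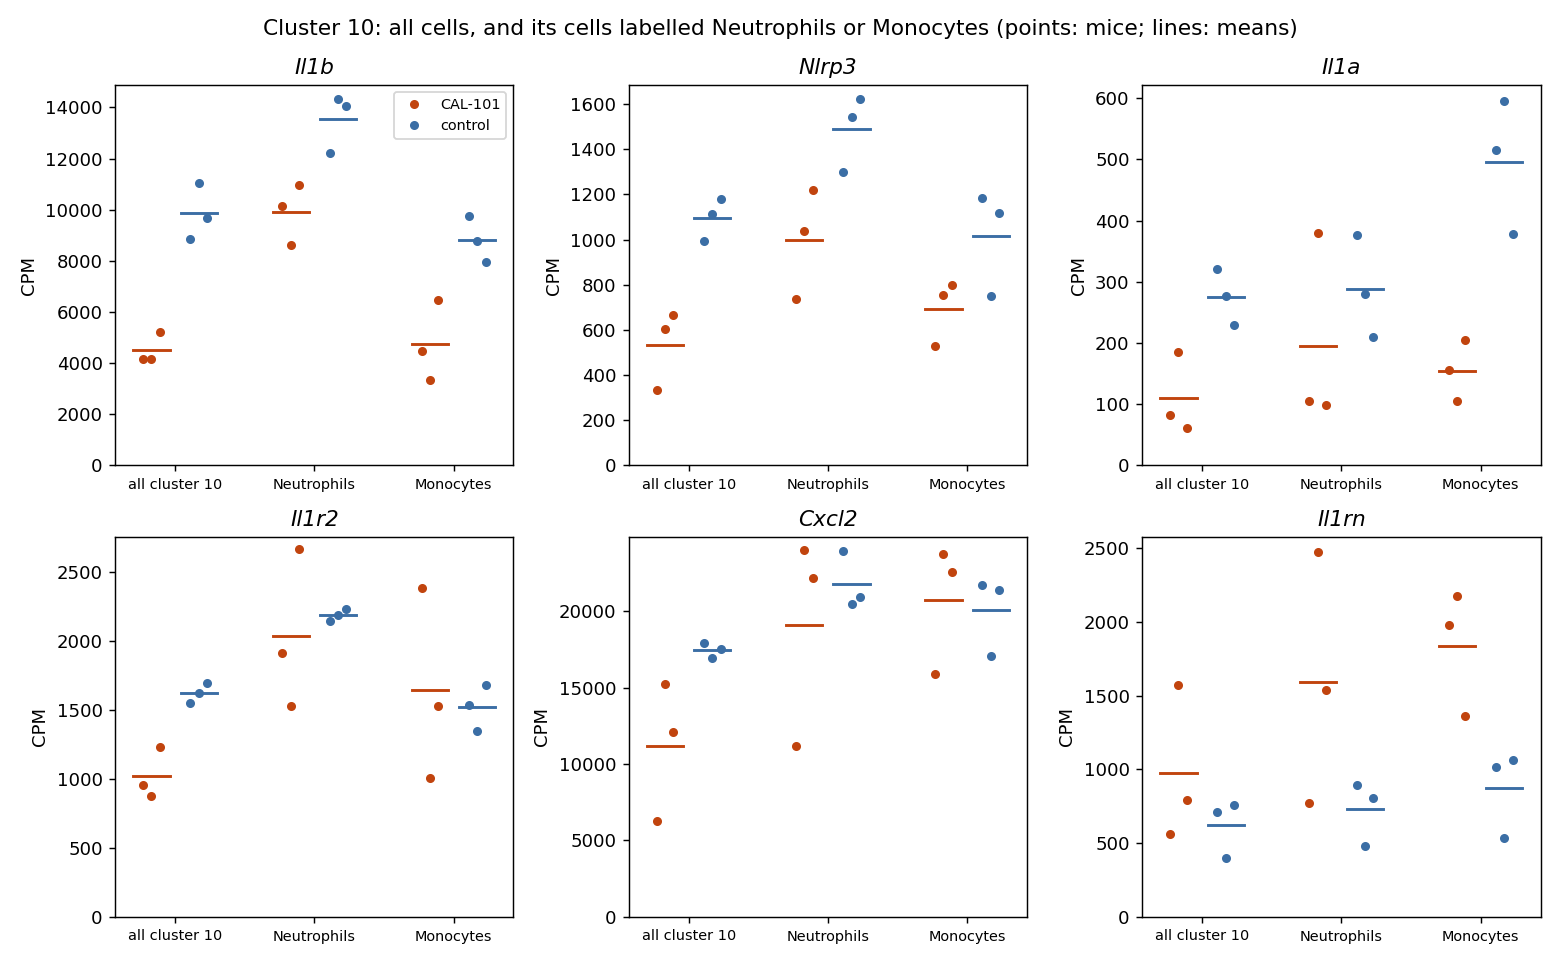
CPM per mouse of 6 members in all of cluster 10 and in its cells labelled Neutrophils or Monocytes, CAL-101 left of control, with lines at the means of 3 mice. In Neutrophils Il1b spans 8612 to 10975 CPM in the CAL-101 mice and 12218 to 14329 CPM in the control mice.

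**Figure D4:**
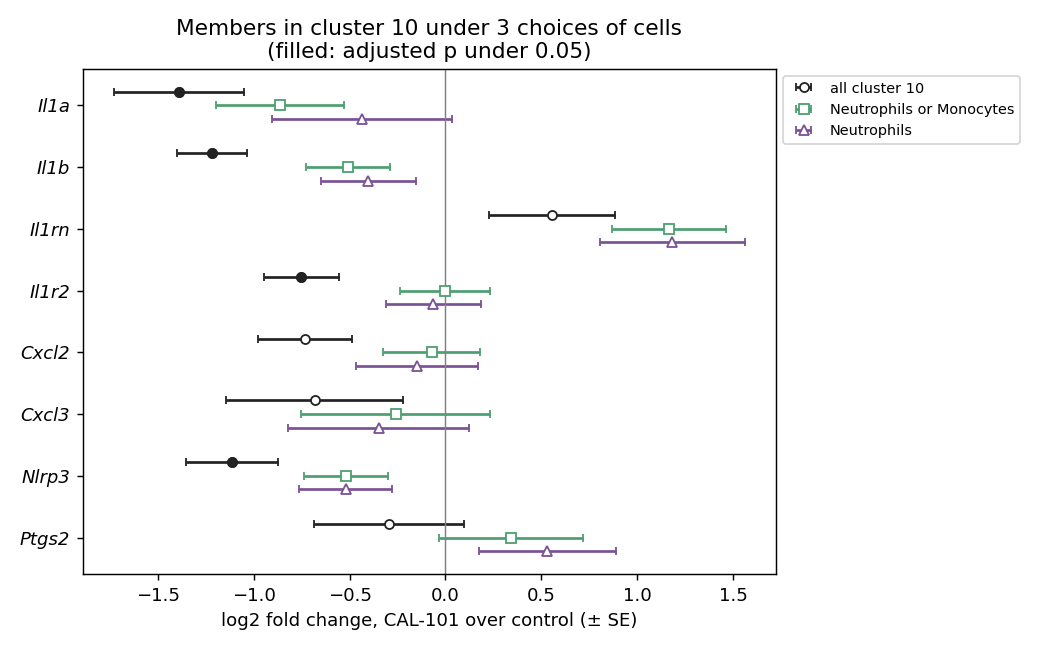
Log2 fold change of 8 members, CAL-101 over control, with its SE, in all of cluster 10, in its Neutrophils and Monocytes together, and in its Neutrophils. Filled points, at an adjusted p under 0.05, are those of Il1a, Il1b, Il1r2 and Nlrp3 in all of cluster 10, and Il1rn is the one gene drawn above 0 in each choice of cells.

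Shares of cells with a UMI were compared after thinning each cell to 1000 UMIs, so that depth did not set them. In cluster 10, 48.2, 71.9 and 50.6% of cells in the CAL-101 mice had a UMI of Il1rn, against 46.9, 32.3 and 41.0% in the control mice. The CAL-101 mice were the upper 3, CAL-101 mouse 1 by little. For Nlrp3 it was 40.6, 42.3 and 49.3% in the CAL-101 mice, against 58.7, 59.2 and 55.7% in the control mice, and for Il1a 9.64, 13.5 and 8.14% against 18.8, 18.2 and 16.9%. For Il1r2 it was 66.9, 57.2 and 68.3% in the CAL-101 mice, against 71.5, 73.7 and 70.6% in the control mice. Of the 9 members that passed the filter on low counts, these 4 did not overlap between the groups, where 18% of all 5310 genes did not overlap by this measure. Each had an exact 2-sided permutation p of 0.1, the smallest that 3 against 3 mice allow, so none could pass 0.05. At 500 UMIs per cell Il1rn overlapped, with 28.1, 52.2 and 35.3% in the CAL-101 mice and 30.3, 19.9 and 26.5% in the control mice, and so did Il1r2, while Il1a, Il1b, Cxcl2 and Nlrp3 did not, 4 of the 9 members against 18.5% of all genes. Without thinning the shares for Il1rn overlapped too, with 69.0, 90.4 and 69.3% in the CAL-101 mice and 73.0, 60.0 and 63.6% in the control mice, and Il1r2 alone of the 9 members did not overlap, against 25.0% of all genes. A total of 8 cells in the CAL-101 mice and 19 in the control mice were too shallow to be thinned. These shares cover all cells of cluster 10, those labelled T or NK among them. In Neutrophils alone Nlrp3 did not overlap at 1000 UMIs (50.2, 50.7 and 57.4% against 62.8, 65.7 and 65.7%). Il1a overlapped there (10.0, 19.5 and 7.48% against 17.9, 17.7 and 14.2%), as did Il1rn and Il1r2. In the monocyte-labelled cells of cluster 10 Il1a, Il1rn and Nlrp3 did not overlap, while Il1r2 did. All genes were not counted in these classes.

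Other genes of the same pathways were tested in all of cluster 10, in lists drawn up with earlier results of these data known. Of 16 tested genes of the IL-1 pathway outside the members, 1 was called lower, Irak3, an inhibitor of signalling below the IL-1 receptor, at 50.6 ± 15.4 CPM in the CAL-101 mice and 202 ± 33.3 CPM in the control mice (log2 fold change -2.04, edgeR adjusted p = 0.00354). With Neutrophils and monocyte-labelled cells alone it was again called, at a log2 fold change of -1.52 (edgeR adjusted p = 0.0422), while the genes called in the next 3 lists, Ccl2 (-1.97, 0.0877), Alox5ap (-1.01, 0.0861) and Arg2 (-0.27, 0.619), were not. Of 9 tested genes of the neutrophil chemokine system, Ccl2, a monocyte attractant, was called lower at 77.2 ± 49.0 CPM in the CAL-101 mice and 277 ± 70.1 CPM in the control mice (log2 fold change -1.82, edgeR adjusted p = 0.0176). Of 8 tested prostanoid and leukotriene genes, Alox5ap, which presents arachidonic acid to 5-lipoxygenase, was called lower at 239.5 ± 34.1 CPM and 709 ± 141 CPM in the CAL-101 and control mice (-1.65, edgeR adjusted p = 0.00382). Of 6 tested arginine genes, Arg2 was called lower at 312 ± 63.5 CPM and 534 ± 9.13 CPM in the CAL-101 and control mice (-0.85, edgeR adjusted p = 0.0360; SD, n = 3 each throughout).

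Of 18 tested NF-kappaB response genes 7 were called lower, namely Icam1, Sod2, Nfkbiz, Tnf, Plaur, Tnfaip2 and Clec4e, and 0 higher. Tnf, a cytokine, had 376 ± 58.1 CPM in the CAL-101 mice and 735 ± 68.4 CPM in the control mice, and Icam1, an adhesion molecule, had 139 ± 43.2 and 406 ± 121 CPM. The list's median log2 fold change was -0.67, against 0.01 over all genes tested. None of 9 tested hypoxia genes was called by edgeR, 1 had an unadjusted p under 0.05 and the list's median was 0.49. The smallest p of the list was that of Ldha, a glycolytic enzyme, with 855 ± 13.3 CPM in the CAL-101 mice and 515 ± 54.3 CPM in the control mice. The next smallest was that of Hilpda, a lipid droplet gene induced by hypoxia, with 1283 ± 870 CPM in the CAL-101 mice and 672 ± 276 CPM in the control mice. In Neutrophils alone, without the cells labelled T or NK, 0 genes of the 6 lists were called, and the NF-kappaB list's median was -0.38, with Tnf at a log2 fold change of -0.65 (edgeR adjusted p = 0.419) and Icam1 at -1.38 (0.343).

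In cluster 11, which holds the other monocyte-labelled cells and most Dendritic cells, 0 members were called of 8 tested. Of all 6594 genes tested edgeR called 0 (0%), with 446 at an unadjusted p under 0.05, DESeq2 called 18, and 12.7% did not overlap between the groups. Cxcl2 had 645, 543 and 342 CPM in the CAL-101 mice, against 1218, 527 and 1573 CPM in the control mice (log2 fold change -1.15, SE 0.37, edgeR adjusted p = 0.660), and the groups overlapped. In the monocyte-labelled cells of that cluster Cxcl2 had 1146, 1519.8 and 1171 CPM in the CAL-101 mice, against 6428, 1591 and 6329 CPM in the control mice. Those groups did not overlap, on 9 to 42 cells per mouse, and 1 cell held 18.1% of all these UMIs. Within a mouse the share of 1 cell was larger. Among Monocytes or Dendritic cells of cluster 11, 1 cell held 54.3% of the Cxcl2 UMIs in control mouse 1 and 47.2% in control mouse 3. In each of the other mice it held 24.9 to 32.3%. In that class 9.1% of the 2131 genes that passed the filter did not overlap. In Dendritic cells it lay the other way, with 398, 2260.2 and 1403 CPM in the CAL-101 mice and 465, 367 and 1091 CPM in the control mice, which overlapped.

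Il1b in cluster 11 had 597, 610.0 and 438 CPM in the CAL-101 mice, against 1005, 1192 and 435 CPM in the control mice (log2 fold change -0.73, edgeR adjusted p = 0.738). Il1r2 had 88.4, 71.2 and 116 CPM in the CAL-101 mice, against 320.4, 273 and 66.7 CPM in the control mice (-1.28, edgeR adjusted p = 0.725). For both genes 2 control mice lay above all CAL-101 mice and control mouse 3 lay below them. Nos2 (log2 fold change 1.28, edgeR adjusted p = 0.817) and Ptgs2 (0.57, 0.896) overlapped between the groups. Arg1 had 107, 109.8 and 0 CPM in the CAL-101 mice and 200.3, 50.9 and 162 CPM in the control mice, from 0 to 14 cells per mouse. Nlrp3 had 144, 108 and 83.6 CPM in the CAL-101 mice and 124, 81.4 and 125 CPM in the control mice, and the groups overlapped. Cells labelled T or NK held 24.02, 55.3 and 63.2% of the UMIs of this cluster in the CAL-101 mice and 45.4, 20.6 and 56.0% in the control mice.

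Genes of the 6 pathway lists were not called in cluster 11 by edgeR either, with 2 of 18 in the IL-1 list, 2 of 12 in the chemokine list and 2 of 19 in the NF-kappaB list at an unadjusted p under 0.05. Whether the change of a gene between groups differed between clusters 10 and 11 was tested directly with limma over 4919 genes. It called 0 (0%), with 586 at an unadjusted p under 0.05, and 0 of the 7 members tested were called. The 2 clusters are therefore not shown to differ in these genes.

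Lymphocytes served as background, and 2 members were called in T cells. Nos2 was low in T cells of every mouse, at 0.447, 0.479 and 0.646 CPM in the CAL-101 mice and 2.64, 3.33 and 2.32 CPM in the control mice. The groups did not overlap, and the log2 fold change was -2.42 (SE 0.21, edgeR adjusted p = 0.000361). Of the 16734 genes tested in T cells, 9.63% were called lower. The call held in all 18 alternatives that gave a value, among them each mouse left out in turn, at log2 fold changes of -2.72 to -2.27 and adjusted p of at most 0.0126. In T cells of clusters 1 to 5 that held no UMI of the myeloid genes S100a8, S100a9 or Lyz2 it was -2.72 (edgeR adjusted p = 0.000383), and 8.92% of genes were called lower in all T cells of clusters 1 to 5. A UMI of Nos2 was seen in 1.38% of T cells (454 of 32861) and in 0.445% of NK cells.

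Nos2 was called lower in each of T cell clusters 1, 2, 3 and 4 taken alone, at log2 fold changes of -2.47, -2.52, -2.52 and -2.61, and was not tested in cluster 5, where it did not pass the filter. In cluster 1 it had 1.09, 0.766 and 1.35 CPM in the CAL-101 mice, against 4.26, 8.03 and 5.27 CPM in the control mice. In cluster 4 it had 0.544, 1.24 and 0.948 CPM in the CAL-101 mice, against 6.45, 6.26 and 4.93 CPM in the control mice. The groups did not overlap in any of clusters 1 to 5, where 30.8, 33.9, 30.3, 27 and 27.5% of all genes tested did not overlap, and in cluster 5 this rested on 33 UMIs. In NK cells it had 0.437, 1.45 and 0.254 CPM in the CAL-101 mice, against 0.506, 0.469 and 0.759 CPM in the control mice, which overlapped, and it did not pass the filter there.

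Il1r2 had 19.4, 23.4 and 21.6 CPM in T cells of the CAL-101 mice, against 63.8, 20.8 and 60.2 CPM in the control mice. Control mice 1 and 3 lay above all CAL-101 mice, and control mouse 2 lay among the CAL-101 mice. The log2 fold change was -1.21 (SE 0.35, edgeR adjusted p = 0.0456), and the call was lost without control mouse 1 (0.142) or 3 (0.143) and without CAL-101 mouse 1 (0.115), 2 (0.0891) or 3 (0.136). Without control mouse 2 the adjusted p was 3.79e-05. The gene's level differed by T cell cluster, and so did the clusters' shares. Cluster 3 had the highest mean level of clusters 1 to 5, with 68.7, 68.8 and 70.3 CPM in the CAL-101 mice and 96.7, 35.4 and 84.9 CPM in the control mice (log2 fold change -0.13, edgeR adjusted p = 0.839). In control mouse 2 its level was below that of cluster 1. It held 7.39% ± 3.08 of T cells in the CAL-101 mice, against 27.3% ± 6.39 in the control mice (SD, n = 3 each). Cluster 5, low in Il1r2, held 21.8% ± 0.439 of T cells in the CAL-101 mice, against 2.30% ± 0.679 in the control mice.

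Within clusters the direction of Il1r2 was not the same throughout, being down in clusters 1 to 4 and up in cluster 5. Clusters 2 and 4 had log2 fold changes of -1.18 and -0.55 (edgeR adjusted p = 0.0646 and 0.371). In cluster 1 Il1r2 was called lower, with 42.5, 30.2 and 38.6 CPM in the CAL-101 mice and 69.8, 40.6 and 79.6 CPM in the control mice (log2 fold change -0.83, edgeR adjusted p = 0.0288). In cluster 5 it had 15.1, 11.9 and 9.17 CPM in the CAL-101 mice, against 5.71, 2.96 and 7.41 CPM in the control mice, with no overlap (log2 fold change 1.10, edgeR adjusted p = 0.0706). The test of the difference itself, cluster 5 minus cluster 3, gave 1.16 on the log2 scale (SE 0.81, limma adjusted p = 0.677). Nlrp3 in T cells overlapped between the groups (log2 fold change -0.88, edgeR adjusted p = 0.192), and it was called lower in cluster 2 taken alone (-1.39, 0.0439), not in cluster 3 (-0.32, 0.714), and again lower without control mouse 2 (-1.26, 0.00439). Cxcl2 had 5.94, 5.64 and 6.14 CPM in T cells of the CAL-101 mice, against 14.2, 1.25 and 2.98 CPM in the control mice. It was not called with all mice (log2 fold change -0.12, edgeR adjusted p = 0.920) and was called higher without control mouse 1 (1.43, edgeR adjusted p = 0.0303). Of its 2690 UMIs in cells labelled T, 579 lay in T cells of clusters 1 to 5, so most came from T-labelled cells elsewhere. In clusters 1 to 5 it was not called either (-0.06, edgeR adjusted p = 0.954).

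**Figure D5:**
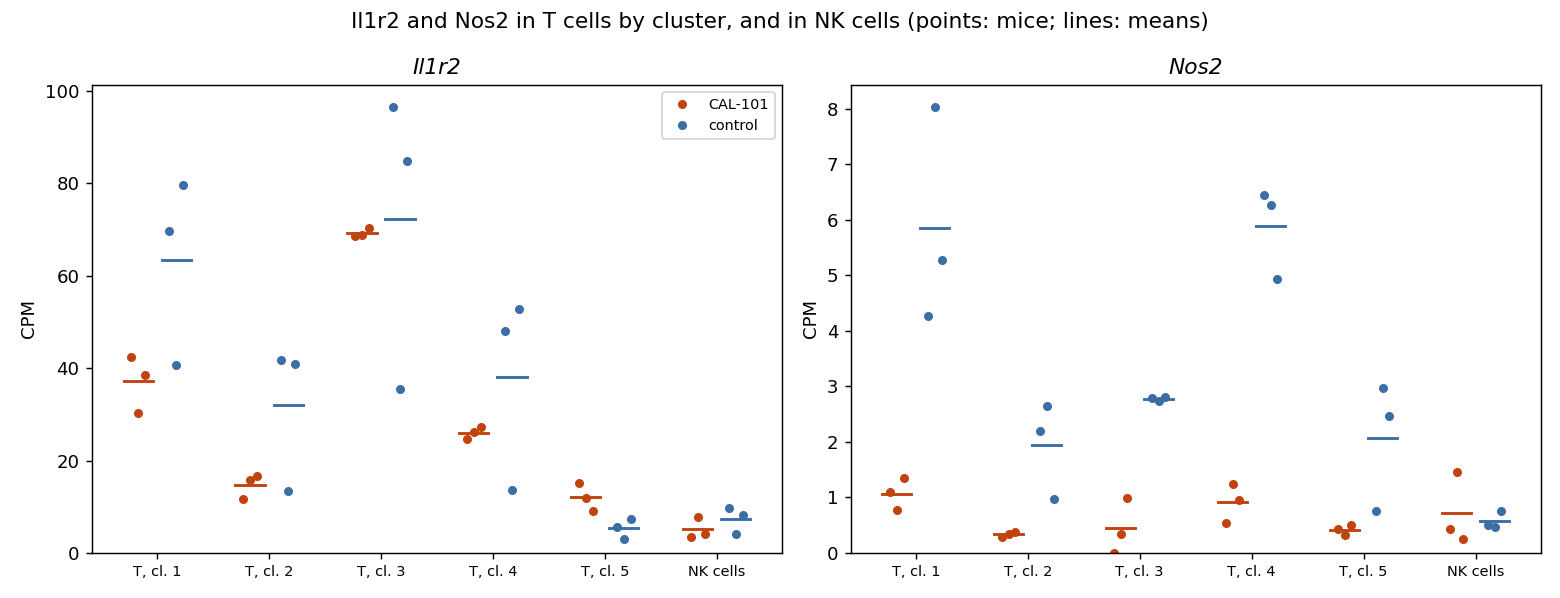
CPM per mouse of Il1r2 and Nos2 in T cells of clusters 1 to 5 and in NK cells, CAL-101 left of control, with lines at the means of 3 mice. For Nos2 all CAL-101 points lie below all control points within each T cell cluster, and for Il1r2 the order turns round in cluster 5.

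In NK cells 0 members were called of 7 tested, where 4.89% of 14028 genes were called by edgeR, and 0 members had an unadjusted p under 0.05. Il1b had 6.21, 7.44 and 11.9 CPM in NK cells of the CAL-101 mice, against 21.5, 8.10 and 7.39 CPM in the control mice. Control mouse 1 had most neutrophils, 206 of the 414. Over all cells of a label, this mouse had the highest Il1b, Cxcl2 and Nlrp3 levels in both NK and T cells. Most UMIs of these genes in NK-labelled cells came from outside the NK clusters. Inside them lay 133 of 1103 for Il1b, 302 of 1852 for Cxcl2 and 66 of 187 for Nlrp3, over all mice. The order of mice need therefore not hold in those clusters alone. A link to neutrophil number and the part of free RNA in these lymphocyte levels were not tested.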

How the data were processed

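RNA and surface protein tags were counted per droplet in 6 libraries, 1 per mouse, with a 10x 3′ kit. The authors deposited UMI counts per gene and cell, not normalized, and per the file headers Cell Ranger 7.1.0 made them. Build mm10 and Seurat, with no version, are named in the submitters' processing notes. Cell classes and cluster numbers are the authors' deposited annotation; their labelling method is not described in the labels. The members and gene lists were chosen with earlier results of these data known, and every member is named. Of each list, genes past the threshold in cluster 10 or 11 are named, and otherwise up to 2 by smallest p.

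The UMI counts of each class were added up within a mouse. These sums went into the quasi-likelihood test of edgeR 4.0.16 (TMM factors, genes kept by filterByExpr, Benjamini-Hochberg over all genes tested, threshold 0.05, at least 10 cells per mouse; SE is the absolute log2 fold change over the square root of F). The difference between clusters was tested with limma 3.58.1 (R 4.3.3), and DESeq2 1.42.0 was an alternative. Tables were made in Python 3.11.15 with pandas 2.3.3, numpy 2.4.6 and scipy 1.17.1, and figures with matplotlib 3.10.9. Doublet scores came from Scrublet in scanpy 1.11.5. Its own threshold called between 0 and 124 cells per library and was not used; the 0.8% of cells per 1000 cells of the library with the highest scores (2806 in all) were left out as an alternative only. Replicates of a group differed by more than sampling noise (chi-square per degree of freedom 2.40 to 45.3), so no library was taken for a copy. Same-numbered mice did not deviate together (r from -0.262 to 0.213), so numbers were not used as pairs. On data simulated from the cluster 10 sums, 91% of genes changed by 2 on the log2 scale and 30% of those changed by 1 were recovered, 100 of each among 5310 genes. Intervals and floors cover counting error only.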

Additional observations from a re-analysis of the deposited data

How the results depend on the processing

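Of 676 values recomputed for single members, 572 kept their direction and side of the threshold, 61 changed sign, 36 lost and 7 gained a call, and 1 of those that changed sign passed the threshold. Every member of clusters 10 and 11 is covered below, and in T cells Il1r2, Nos2, Nlrp3 and Cxcl2, a selection made after their values were seen. The settings Neutrophils or Monocytes, Monocytes of any cluster, Monocytes or Dendritic cells, single T cell clusters and T cells without myeloid UMIs were chosen after seeing the data. In cluster 10, against 308 calls, there were 324 with RLE size factors, 572 with no filter, 307 with DESeq2, 94 with a replicate block, 16 without the highest doublet scores, 0 in Neutrophils, 30 in Neutrophils or Monocytes, and 17 to 428 with a mouse left out. In cluster 11, against 0 calls (446 at an unadjusted p under 0.05), there were 146 with no filter, 18 with DESeq2, 6 with the block and 0 to 2 with a mouse left out. In NK cells, against 686, there were 1323 with no filter, 213 in NK clusters 0, 7, 9 and 13, and 4 to 1589 with a mouse left out. In T cells, against 3194, there were 1495 with the block, 1369, 1771, 863, 953 and 624 in clusters 1 to 5 taken singly, and 1429 to 3850 with a mouse left out.

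With no filter, Cxcl2 passed in cluster 10 (log2 fold change -0.83, edgeR adjusted p = 0.0185), and in cluster 11 Cxcl2 (-1.08, 7.7e-05), Il1r2 (-1.19, 0.00187) and Nos2 (1.35, 0.0368) passed. The block ended the calls of Il1r2 in cluster 10 (edgeR adjusted p = 0.0765) and in T cells (0.112), and DESeq2 ended its T cell call (0.0556). Of 14 alternatives in cluster 10, the call of Il1b held in 11, those of Il1a and Nlrp3 in 7 each and that of Il1r2 in 5, and none of the 4 changed sign. Values that changed sign in cluster 10 were those of Ptgs2 without CAL-101 mouse 1 (0.11), without the highest doublet scores (0.17), in Neutrophils (0.53) and in Neutrophils or Monocytes (0.34), and of Nos2 without CAL-101 mouse 3 (0.18). In cluster 11, 14 values changed sign, none past the threshold. They were Il1b (0.11), Il1rn (0.83) and Cxcl2 (1.06) in Dendritic cells, Ptgs2 (-0.31) and Arg1 (0.93) in Monocytes of any cluster, and Il1rn without CAL-101 mouse 3 (0.091). Nlrp3, at 0.01 in all of cluster 11, had no stable direction there. It was below 0 with RLE size factors (-0.0026), DESeq2 (-0.0097), the block (-0.047) and without cells over 20% mitochondrial or under 1000 UMIs (-0.0019). The same held in Monocytes or Dendritic cells (-0.087) and without control mouse 2 (-0.19) or CAL-101 mouse 1 (-0.26). In Monocytes of any cluster it was -0.99. The settings Monocytes of any cluster and Dendritic cells are not confined to cluster 11, and 232 of the 360 Monocytes lay in cluster 10. For the 4 genes in T cells the values that changed sign were Il1r2 in cluster 5 (1.10) and 4 of Cxcl2. Those of Cxcl2 were with the block (0.55), without control mouse 1 (1.43), without the highest doublet scores (0.56) and in cluster 5 (0.015). With a mouse left out in turn, Ptgs2 in cluster 10 ranged between -0.57 and 0.11, Nos2 in cluster 10 between -1.09 and 0.18, Il1rn in cluster 11 between -0.95 and 0.091, Nlrp3 in cluster 11 between -0.26 and 0.19, and Cxcl2 in T cells between -0.59 and 1.43. The cause was not tested. Tests in the monocyte-labelled cells of cluster 10 or 11 alone were not run, as mice had as few as 9 cells. In the simulation of cluster 11, 89% of genes changed by 2 on the log2 scale and 20% of those changed by 1 were recovered among 6594 genes, so changes of the smaller size could be missed there.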
